A study of Mus musculus with 12 samples.

Results

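Tight junctions seal the gap between neighbouring epithelial cells. The transcripts of 9 tight junction genes were followed in the periocular skin of filaggrin-deficient mice with and without MyD88. These were the claudins *Cldn1*, *Cldn3*, *Cldn4*, *Cldn7*, *Cldn8* and *Cldn23*, together with *Ocln* (occludin), *Tjp1* (ZO-1) and *F11r* (JAM-A). They are the rows of the count table that carry these symbols, a list drawn up with earlier results of these data known. All 9 were found among the 21247 genes of the table, and all 9 were among the 20454 genes that reached 10 counts summed over the libraries and were tested. Their counts ranged from 144 to 9136 per library, so none was near the limit of detection.

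The 8 libraries came from periocular skin, eye-skin in the labels, of 6-week-old mice on a BALB/c background. The 4 libraries labelled ft/ft came from mice with a point mutation that abolishes filaggrin function, kept without the *ma* mutation. The 4 libraries labelled ft/ftMyD88-/- came from an in-house cross of ft/ft mice with MyD88 deficient (MyD88-/-) mice. The study describes the MyD88 knockout as global. Both groups therefore carry the same filaggrin mutation, and the comparison is between MyD88 present and MyD88 absent on that background. Per the study, periocular skin was spontaneously inflamed in all ft/ftMyD88-/- mice by 6 weeks of age, with a thickened epidermis. It saw no visible inflammation in ft/ft mice. MyD88 genotype and inflammation thus cannot be told apart in these libraries. MyD88 passes signals from toll-like and IL-1 family receptors, and filaggrin is a structural protein of the outer epidermis. WT skin was not analysed here. The study describes as many mice as there are libraries in each group, though the labels do not tie a given library to a mouse, and the p-values measure the spread between these libraries.

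Claudins are membrane-spanning proteins that polymerise into the strands of the tight junction, and the mixture of claudins in a cell sets which ions and solutes can pass between cells. Occludin and JAM-A lie in or beside the same strands, and ZO-1 binds their cytoplasmic tails and ties them to actin. In the epidermis the junction sits in the granular layer, beneath the cornified layer that filaggrin helps to build, and mice without claudin-1 die of water loss soon after birth.

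The libraries held 18941705 to 29255129 counts in ft/ft and 15802957 to 27037997 in ft/ftMyD88-/-. Values per library below are CPM (counts scaled to a common library size by edgeR's TMM method), whose factors were 0.922 to 0.954 in ft/ft and 1.04 to 1.09 in ft/ftMyD88-/-. The transcripts that mark sex went against the study's description of sex-matched female mice. Counts of *Xist*, the RNA that coats the inactive X, were 1, 0, 0 and 0 in the ft/ft libraries but 1136, 1261, 1964 and 567 in the ft/ftMyD88-/- libraries. Counts of the Y-linked gene *Ddx3y* were 1708, 1490, 1095 and 1864 in ft/ft but 11, 2, 1 and 0 in ft/ftMyD88-/-. MyD88 genotype and sex thus cannot be told apart in any difference between these groups. *Myd88* transcript did not fall in ft/ftMyD88-/-, with 32.1, 36.5, 28.7 and 25.4 CPM in ft/ft against 38.8, 48.8, 32.2 and 44.9 CPM (log2 fold change 0.42, SE 0.142, edgeR adjusted p = 0.0484, lost in 7 of 15 alternative settings). The deleted stretch of the gene is not given in the sources used here, so this count per gene does not test the label, and the groups are called by their labels throughout.

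Of the 9 genes, 4 were lower in ft/ftMyD88-/- and 0 were higher. The 4 were *Cldn23*, *Ocln*, *Cldn3* and *Cldn1* (quasi-likelihood test of edgeR, p-values adjusted over all genes tested by Benjamini-Hochberg, called under 0.05). DESeq2 and limma voom also called 4 lower and 0 higher, where they called 13.5% and 12.2% of all genes lower, and no member had an edgeR fold change above 0 whatever its unadjusted p. Across all 20454 genes tested, 12.3% were called lower and 23.3% were called in either direction, against 44.4% of these 9 called lower. *Cldn23* fell the most, by 2.45-fold, followed by *Ocln*, *Cldn3* and *Cldn1*. *Cldn4*, *Cldn7*, *Cldn8*, *Tjp1* and *F11r* did not pass the test. The fitted log2 fold change was below 0 for 9 of 9 with TMM scaling, with a median of -0.19 against 0.013 over all genes tested, but when libraries were scaled by their total counts alone it turned to between 0.0033 and 0.090 for *Cldn4*, *Cldn7*, *Cldn8* and *Tjp1*. The sign also turned without ft/ftMyD88-/- replicate 3 for *Cldn4* (0.013) and *Cldn7* (0.045), and without ft/ft replicate 1 or ft/ftMyD88-/- replicate 2 for *Cldn8* (up to 0.073). The count of members lower was 2, *Cldn23* and *Ocln*, with library size only, where 6.48% of all genes were called lower, and without ft/ftMyD88-/- replicate 2. Scaling by library size only moved the median of all genes by 0.177 on the log2 scale. Relative to the shift, *Cldn23* stood at -1.29, *Ocln* at -0.61, *Cldn3* at -0.54 and *Cldn1* at -0.37. Those that changed sign with this scaling stood, relative to the same shift, at -0.10 for *Cldn4*, -0.17 for *Cldn7*, -0.086 for *Cldn8* and -0.17 for *Tjp1*. Because these are bulk tissue libraries, fewer cells of a type and less RNA per cell cannot be told apart.

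**Figure D1:**
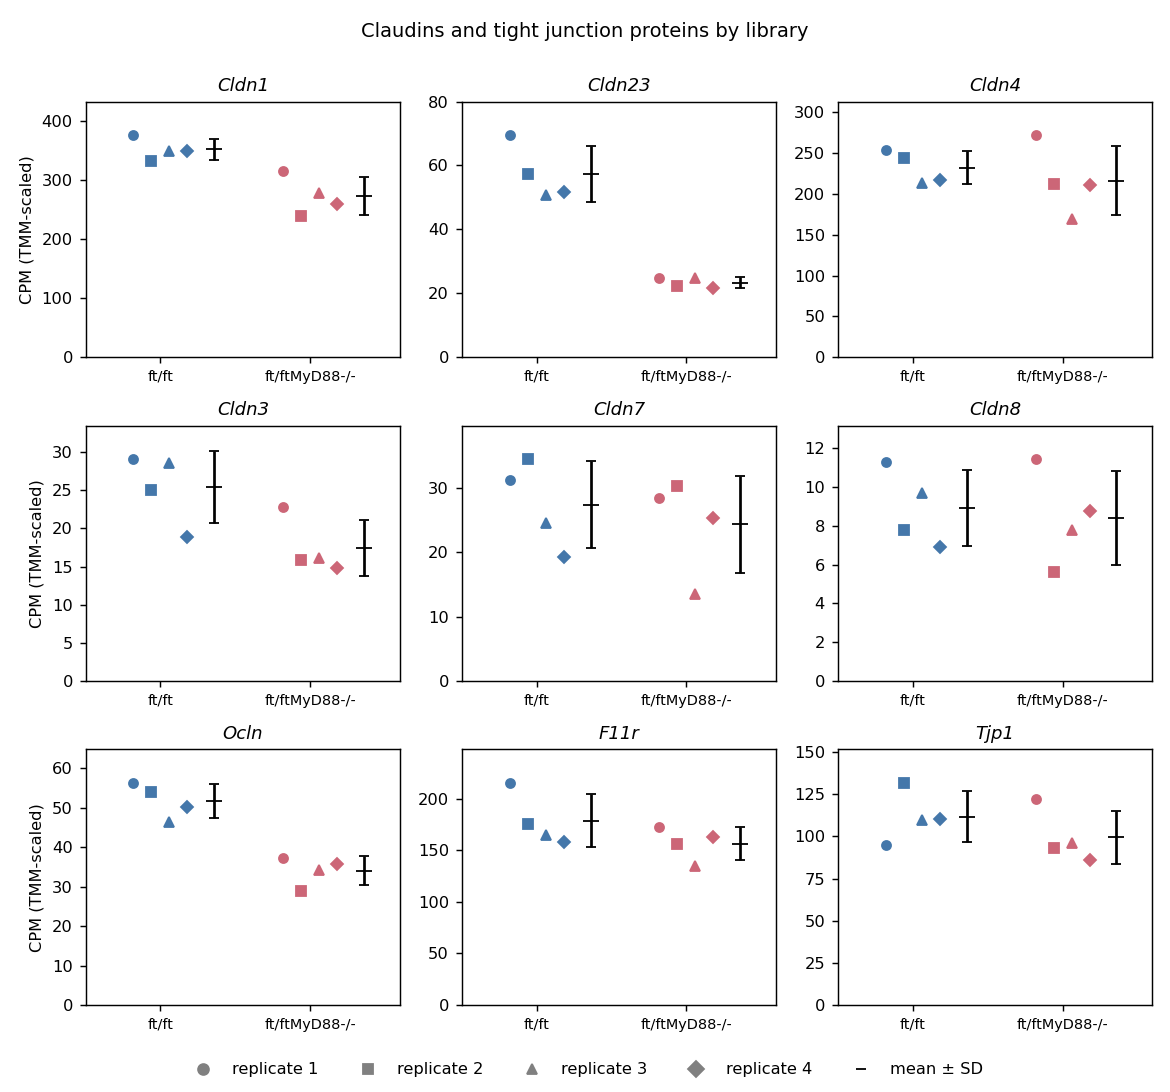
CPM (TMM-scaled, linear axis from 0) of each of the 9 genes in each library, with ft/ft on the left and ft/ftMyD88-/- on the right of each panel. Marker shapes give the replicate number and the bar beside each group is its mean ± SD (n = 4). The groups were apart for *Cldn1*, *Cldn23* and *Ocln* and overlapped for the other 6 genes.

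*Cldn23*, a claudin of barrier epithelia, stood at 69.6, 57.3, 50.7 and 51.7 CPM in ft/ft and at 24.8, 22.3, 24.7 and 21.7 CPM in ft/ftMyD88-/-. Every ft/ftMyD88-/- library lay below every ft/ft library, and the lowest ft/ft value was above 50 CPM while the highest ft/ftMyD88-/- value was below 25 CPM. The means were 57.3 ± 8.66 CPM (SD, n = 4) and 23.4 ± 1.61 CPM, so the level fell by 59.2%. The log2 fold change was -1.29 (SE 0.111, edgeR adjusted p = 2.6e-05). It remained called under all 15 alternative settings, between -1.35 and -1.11.

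*Cldn1*, the claudin on which the water barrier of mouse epidermis depends, stood at 376, 332, 350 and 349 CPM in ft/ft and at 315, 239, 278 and 259 CPM in ft/ftMyD88-/-. The groups did not overlap, although the highest ft/ftMyD88-/- library came close to the lowest ft/ft library. The means were 352 ± 18.3 CPM and 273 ± 32.4 CPM (SD, n = 4 each), which is 1.29-fold lower in ft/ftMyD88-/- (log2 fold change -0.37, SE 0.0989, edgeR adjusted p = 0.019). The call was lost in 2 of 15 alternative settings. These were scaling by library size only, with an edgeR adjusted p of 0.16, and leaving out ft/ftMyD88-/- replicate 2, where the log2 fold change was -0.30.

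*Cldn3*, a sealing claudin found in many epithelia, stood at 29.1, 25.0, 28.6 and 18.9 CPM in ft/ft and at 22.8, 15.8, 16.2 and 14.8 CPM in ft/ftMyD88-/-. One library of each group crossed over, ft/ft replicate 4 being lower than ft/ftMyD88-/- replicate 1. The means were 25.4 ± 4.69 CPM and 17.4 ± 3.67 CPM (SD, n = 4 each), and the log2 fold change was -0.55 (SE 0.164, edgeR adjusted p = 0.0321). This was the least stable of the 4 calls. It was lost in 7 of 15 alternative settings, with edgeR adjusted p up to 0.109. These were library size only and leaving out ft/ft replicate 1, 2 or 3 or ft/ftMyD88-/- replicate 2, 3 or 4. With 1 library left out the log2 fold change stayed between -0.70 and -0.47.

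*Cldn4*, a claudin that tightens the paracellular path to sodium in several epithelia, stood at 254, 244, 214 and 217 CPM in ft/ft and at 272, 212, 169 and 211 CPM in ft/ftMyD88-/-. The highest and the lowest of the 8 values were both ft/ftMyD88-/- libraries. The means were 232 ± 20.0 CPM and 216 ± 42.5 CPM (SD, n = 4 each), and the log2 fold change of -0.10 had a 95% interval of -0.39 to 0.18 (edgeR adjusted p = 0.61).

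*Cldn7*, which in other epithelia lies along the basolateral membrane as well as in the junction, stood at 31.2, 34.4, 24.5 and 19.3 CPM in ft/ft and at 28.3, 30.2, 13.5 and 25.3 CPM in ft/ftMyD88-/-. The groups overlapped over most of their range, and ft/ftMyD88-/- replicate 3 was the lowest of the 8. The log2 fold change was -0.17, with a 95% interval of -0.78 to 0.43 (edgeR adjusted p = 0.687), the widest interval among the 9 genes.

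*Cldn8*, known from the distal nephron and colon, stood at 11.3, 7.78, 9.71 and 6.90 CPM in ft/ft and at 11.4, 5.62, 7.76 and 8.78 CPM in ft/ftMyD88-/-. Replicate 1 was the highest library in both groups, and the groups overlapped. The log2 fold change was -0.09, with a 95% interval of -0.56 to 0.38 (edgeR adjusted p = 0.804).

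Of the other transmembrane proteins, *Ocln* stood at 56.3, 54.1, 46.4 and 50.3 CPM in ft/ft and at 37.2, 28.8, 34.3 and 35.7 CPM in ft/ftMyD88-/-. Every ft/ftMyD88-/- library lay below every ft/ft library. Occludin fell from 51.8 ± 4.38 CPM to 34.0 ± 3.67 CPM (SD, n = 4 each), which is 1.52-fold (log2 fold change -0.61, SE 0.101, edgeR adjusted p = 0.00148). The call remained under all 15 alternative settings.

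*F11r*, whose product JAM-A is an immunoglobulin-family adhesion molecule of the junction, stood at 215, 175, 164 and 158 CPM in ft/ft and at 173, 156, 135 and 163 CPM in ft/ftMyD88-/-. The ft/ft group was spread by its replicate 1, and the remaining libraries of both groups overlapped. The log2 fold change was -0.19, with a 95% interval of -0.44 to 0.06 (edgeR adjusted p = 0.249).

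*Tjp1*, which encodes the scaffold ZO-1, stood at 94.7, 132, 110 and 110 CPM in ft/ft and at 122, 93.4, 96.4 and 85.8 CPM in ft/ftMyD88-/-. Replicate 1 was the lowest library of ft/ft and the highest of ft/ftMyD88-/-. The log2 fold change was -0.17, with a 95% interval of -0.44 to 0.10 (edgeR adjusted p = 0.361).

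The libraries did not deviate alike. In ft/ftMyD88-/- replicate 1, 9 of 9 genes lay above their group's mean log2 CPM, by 0.27 on average. In ft/ft replicate 1 this held for 8 of 9, with *Tjp1* as the exception, and in ft/ft replicate 4 for 0 of 9, with an average deviation of -0.18. The other 5 libraries had between 2 and 5 genes above the mean. Of the 9 genes, 3 had groups that did not overlap, all with ft/ftMyD88-/- lower, where 14.2% of all genes tested had such a pattern and 26.7% did not overlap in either direction.

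The order of the members' levels was compared per transcript length, as CPM divided by the exon length in kilobases (RPKM). This is a level and not a difference. The order holds only if counts rise with transcript length, which was not tested. The study and the labels describe different library protocols. Without division by length, *Cldn1* at 352 CPM lay above *Cldn4* at 232 CPM in ft/ft. In ft/ft, *Cldn4* was highest at 127.8 RPKM (118 to 139.9 over the 4 libraries), above *Cldn1* at 72.7 ± 3.77 and *F11r* at 67.0 ± 9.60, and these last were not separable because their libraries overlapped. *Cldn23* followed at 31.0 ± 4.69 RPKM, apart from its neighbours on both sides. *Cldn3* at 20.2, *Tjp1* at 14.3, *Cldn7* at 14.0 and *Ocln* at 12.3 RPKM followed, each overlapping its neighbour among these 4, and *Cldn8* was lowest and apart at 3.78 ± 0.832 RPKM. In ft/ftMyD88-/-, *Cldn4* at 119 ± 23.4 RPKM was again apart from the next gene. *Cldn23* stood at 12.6 ± 0.871 RPKM there, sixth in the order, and overlapped *Tjp1* at 12.7 and *Cldn7* at 12.5 RPKM.

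The mixture of claudins within a library does not depend on how libraries are scaled against each other. The shares in percent do rest on the same division by length. Of the counts per length summed over the 6 claudins, *Cldn23* took 12.6%, 11.3%, 10.7% and 11.3% in the ft/ft libraries and 5.04%, 5.77%, 7.16% and 5.60% in the ft/ftMyD88-/- libraries. *Cldn4* took 46.7%, 48.9%, 45.8% and 48.3% in ft/ft and 56.4%, 56.0%, 49.8% and 55.3% in ft/ftMyD88-/-. The groups were apart for both genes, in opposite directions, with means of 11.5% ± 0.798 and 5.89% ± 0.903 for *Cldn23* and of 47.4% ± 1.40 and 54.4% ± 3.09 for *Cldn4* (SD, n = 4 each). The share of *Cldn1* was 27.1% ± 1.92 in ft/ft and 26.1% ± 3.18 in ft/ftMyD88-/-, and the groups overlapped. *Cldn3* at 7.47% and 6.32%, *Cldn7* at 5.17% and 5.69% and *Cldn8* at 1.40% and 1.63% overlapped too. Shares sum to 100%, so a fall of one raises the others, and no test was made on them.

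**Figure D2:**
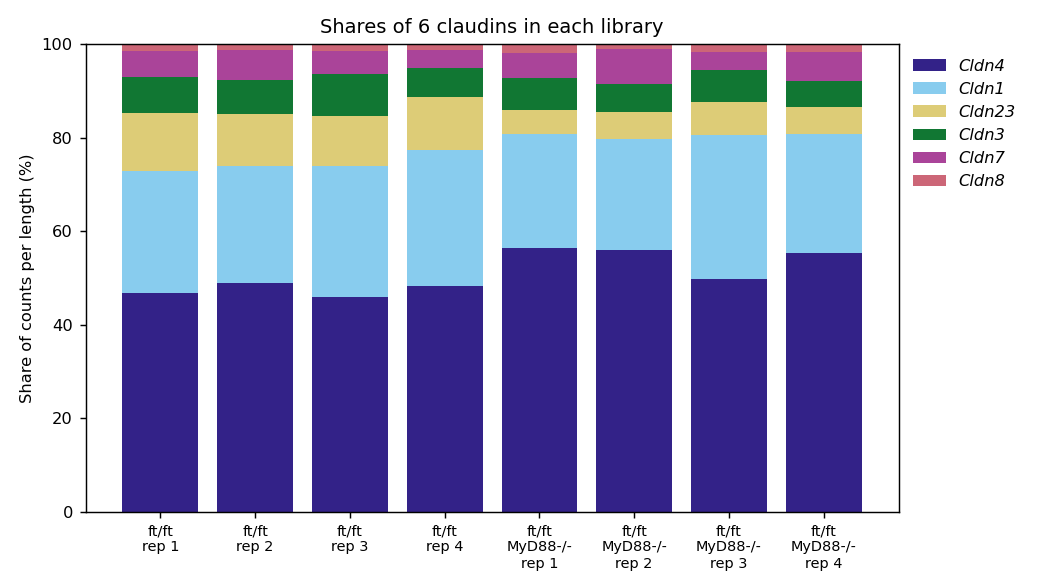
Share of each of the 6 claudins in their summed counts per length, in percent (linear axis from 0 to 100), for each ft/ft and ft/ftMyD88-/- library. *Cldn23* took 10.7% to 12.6% in ft/ft and 5.04% to 7.16% in ft/ftMyD88-/-, and *Cldn4* took 45.8% to 48.9% and 49.8% to 56.4%.

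Each gene was also set against *Cdh1*, which encodes the E-cadherin of epithelial cells, as the log2 ratio of counts within a library. *Cdh1* itself was lower in ft/ftMyD88-/- (log2 fold change -0.41, SE 0.0989, edgeR adjusted p = 0.0113), a call lost with library size only. The ratio of *Cldn23* to *Cdh1* was -2.82 ± 0.237 in ft/ft and -3.70 ± 0.126 in ft/ftMyD88-/- (SD, n = 4 each), and the groups were apart. The ratio of *Tjp1* to *Cdh1* was -1.86 ± 0.124 in ft/ft and -1.62 ± 0.119 in ft/ftMyD88-/-, apart in the opposite direction. With TMM scaling *Tjp1* itself was not higher, at a log2 fold change of -0.17 against -0.41 for *Cdh1*. For the other 7 genes the groups overlapped, with differences in mean log2 ratio of -0.20 for *Ocln*, -0.14 for *Cldn3*, 0.034 for *Cldn1* and 0.21 to 0.30 for *Cldn4*, *Cldn7*, *Cldn8* and *F11r*. These ratios are descriptions with no test, and the share of all genes with groups apart in such a ratio was not computed.

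*Cldn3* and *Cldn4* lie side by side on mouse chromosome 5, at chr5:134986214-134987476 and chr5:134945123-134946934 (GRCm38.p6), with 39.3 kb and 0 coding genes between them. Each is encoded by 1 exon. The pair differed in the test, *Cldn3* being called lower and *Cldn4* not, although whether their fold changes differ from each other was not tested. An exon of *Cldn3* overlaps 40 bases of *Wbscr25* on the opposite strand, and the strand setting of the counting is not given in the sources used here. The other members are spread over the genome. *Cldn1* (chr16:26356645-26371839) and *Cldn8* (chr16:88560826-88563183) are far apart on chromosome 16, *Cldn7* is at chr11:69964779-69967886 and *Cldn23* at chr8:35824709-35826559. *Ocln* is at chr13:100496504-100552718, *Tjp1* at chr7:65296165-65527850 and *F11r* at chr1:171437561-171464593.

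Promoter sequences are shown for the 3 genes called lower that have an entry and for *Cldn4*, the neighbour of *Cldn3* that was not called. They are the 250 bases before the RefSeq start (GRCm38.p6), 5′ to 3′ on the gene's strand, which is minus for *Cldn1*, *Cldn4* and *Ocln* and plus for *Cldn3*. The windows are chr16:26371840-26372089, chr5:134985964-134986213, chr5:134946935-134947184 and chr13:100552719-100552968 for *Cldn1*, *Cldn3*, *Cldn4* and *Ocln* (the first of its 2 starts). Capitals mark matches on either strand to the AP-1 motif TGANTCA, the Snail E-box CAGGTG, the GC box GGGCGG, the grainyhead motif AACCGGTT and the TATA box TATAAA, and no matches overlapped.
Cldn1: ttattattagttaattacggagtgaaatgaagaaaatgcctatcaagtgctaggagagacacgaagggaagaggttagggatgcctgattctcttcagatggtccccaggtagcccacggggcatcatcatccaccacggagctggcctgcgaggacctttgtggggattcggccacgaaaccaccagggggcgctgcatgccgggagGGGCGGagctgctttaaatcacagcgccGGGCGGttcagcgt
Cldn3: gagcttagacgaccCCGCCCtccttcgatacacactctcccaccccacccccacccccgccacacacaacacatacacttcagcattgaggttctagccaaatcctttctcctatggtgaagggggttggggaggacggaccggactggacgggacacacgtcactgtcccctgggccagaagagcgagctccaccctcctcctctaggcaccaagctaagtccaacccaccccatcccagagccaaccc
Cldn4: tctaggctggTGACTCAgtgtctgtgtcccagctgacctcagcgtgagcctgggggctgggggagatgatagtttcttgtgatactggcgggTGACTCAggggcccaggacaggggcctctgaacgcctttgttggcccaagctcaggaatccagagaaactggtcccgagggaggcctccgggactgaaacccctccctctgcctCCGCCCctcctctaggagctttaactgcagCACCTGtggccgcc
Ocln: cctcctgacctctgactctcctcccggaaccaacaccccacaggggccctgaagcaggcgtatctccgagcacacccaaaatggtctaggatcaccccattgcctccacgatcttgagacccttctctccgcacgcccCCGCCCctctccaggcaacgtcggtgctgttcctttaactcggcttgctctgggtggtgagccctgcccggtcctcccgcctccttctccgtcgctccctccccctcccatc

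In these windows, *Cldn4* held AP-1 matches that began 240 and 158 bases before the start, an E-box at 14 and a GC box at 44 bases. *Cldn3* held a single GC box at 236 bases, *Cldn1* held GC boxes at 42 and 14 bases, and *Ocln* held a GC box at 112 bases. The E-box was not particular to *Cldn4*. The window before the second *Ocln* start, which is not printed, held E-boxes at 213 and 68 bases and a GC box at 43, and the window before the second *Cldn7* start held E-boxes at 97 and 57 bases and a GC box at 6. *F11r* held an AP-1 match at 109 bases, an E-box at 122 and a GC box at 50, *Tjp1* held GC boxes at 68 and 50 bases, and the window before the first *Cldn7* start held no match. Among 32851 windows of the same length, the AP-1 motif occurred in 6.75%, the E-box in 17.2%, the GC box in 32.7%, the TATA box in 12.4% and the grainyhead motif in 0.116%. No grainyhead or TATA match was found in any of the 9 windows of the 7 members with an entry. *Cldn8* and *Cldn23* had no promoter entry. These matches are letters in a window and were not tied to any binding measurement.

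Of 20 other claudins listed, 10 were in the table, and 3 of these passed the test, 2 lower and 1 higher, a share near the 23.3% of all genes called in either direction. *Cldn19*, known from nerve sheaths and kidney, stood at 4.33, 5.24, 5.58 and 5.41 CPM in ft/ft and at 1.45, 2.87, 3.33 and 1.83 CPM in ft/ftMyD88-/-. The groups were apart, and the log2 fold change was -1.09 (SE 0.24, edgeR adjusted p = 0.00678), called under all 15 alternative settings. An exon of *Cldn19* overlaps 90 bases of *Gm12927* on the opposite strand, and the strand setting of the counting is not given. Beside *Cldn19*, 3 of 4 Schwann cell markers were lower, where 12.3% of all genes tested were called lower. Among them was *Mbp*, which encodes a protein of myelin. The summed level of the 4 was 285 to 345 CPM in ft/ft and 194 to 280.3 CPM in ft/ftMyD88-/-. None of the 4 was at 0, and their part in the *Cldn19* result was not tested.

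*Cldn2*, which forms channels for cations and water, was the one claudin called higher. The gene lies on chromosome X, and sex cannot be told apart from genotype in these groups. *Cldn2* stood at 1.46, 3.86, 2.18 and 1.34 CPM in ft/ft and at 3.42, 5.44, 3.57 and 4.94 CPM in ft/ftMyD88-/-. The groups overlapped through ft/ft replicate 2, and the call (log2 fold change 0.96, SE 0.317, edgeR adjusted p = 0.0476) was lost in 5 of 15 alternative settings, each of them leaving out 1 library (ft/ft replicate 1, 3 or 4 or ft/ftMyD88-/- replicate 2 or 4, with log2 fold changes of 0.78 to 1.40 over all 8 such fits). *Cldn9* was called lower (edgeR adjusted p = 0.0443), but it rested on 12, 4, 7 and 12 counts in ft/ft against 1, 4, 4 and 2, and the call was lost in 11 of 14 settings. *Cldn5*, the claudin of blood vessels, stood at 30.4 ± 4.99 CPM in ft/ft and 24.9 ± 5.14 CPM in ft/ftMyD88-/- (SD, n = 4 each; log2 fold change -0.28, edgeR adjusted p = 0.205). *Cldn17*, the neighbour of *Cldn8* at 53.8 kb, and *Cldn12* and *Cldn14* were not called either (edgeR adjusted p = 0.704, 0.0761 and 0.073). The median log2 fold change of the 10 was -0.05. Only 1 of the 10 was called without ft/ft replicate 3, ft/ft replicate 4 or ft/ftMyD88-/- replicate 4.

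Among the other tight junction genes, 43 were tested in lists of membrane proteins, scaffolds and signalling proteins. Of these 16 were lower and 1 was higher, so that 37.2% were called lower where 12.3% of all genes were. Their median log2 fold change was -0.28, but the lists differed. The median was -0.33 for the membrane proteins, -0.34 for the scaffolds and -0.0022 for the signalling proteins, against 0.013 over all genes tested. With library size only the split of the 43 genes was 9 lower and 7 higher, where 6.48% of all genes were called lower and 22.7% higher. The share called lower thus stayed above that over all genes under this scaling, and the share called higher was below it.

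Of 10 other membrane proteins, 4 were lower, where 12.3% of all genes tested were called lower. *Marveld2* (tricellulin), which together with *Lsr* (angulin-1) and *Ildr1* (angulin-2) builds the sites where 3 cells meet, stood at 23.2, 23.1, 22.6 and 24.4 CPM in ft/ft and at 18.6, 15.3, 17.8 and 12.6 CPM in ft/ftMyD88-/-. The groups were apart (log2 fold change -0.53, SE 0.122, edgeR adjusted p = 0.00835), though the call was lost with library size only. *Lsr* fell from 45.6 ± 4.62 CPM to 31.9 ± 4.12 CPM and *Ildr1* from 22.3 ± 3.17 CPM to 14.5 ± 1.85 CPM (SD, n = 4 each; edgeR adjusted p = 0.00545 and 0.00525), and all libraries of one group lay below those of the other for both. *Bves*, an adhesion protein best known from muscle, was the fourth, at 8.50 ± 1.14 CPM and 4.79 ± 0.933 CPM (edgeR adjusted p = 0.00447). Beside *Bves*, 5 of 5 skeletal muscle markers were lower, again where 12.3% of all genes tested were. Their summed levels were 7069 to 9537 CPM in ft/ft and 2748 to 5103 CPM in ft/ftMyD88-/-, and their part was not tested. *Marveld3*, *Jam2*, *Jam3*, *Cxadr* and *Crb3* did not pass the test (edgeR adjusted p from 0.0774 to 0.538).

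Of 18 other scaffold genes, 8 were lower, where 12.3% of all genes tested were called lower. *Cgn*, whose product cingulin links ZO proteins to myosin and microtubules, showed the largest fall of the list. It stood at 80.5, 99.0, 67.9 and 86.8 CPM in ft/ft and at 31.8, 27.7, 38.9 and 25.2 CPM in ft/ftMyD88-/-. The groups were far apart, at 83.5 ± 12.9 CPM and 30.9 ± 5.98 CPM (SD, n = 4 each), which is 2.70-fold (log2 fold change -1.43, SE 0.146, edgeR adjusted p = 1.06e-04, called in all 15 settings).

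*Tjp3* (ZO-3), a scaffold related to ZO-1, was lower, from 96.7 ± 15.4 CPM to 67.4 ± 5.54 CPM (SD, n = 4 each; edgeR adjusted p = 0.00641, called in all 15 settings). *Tjp1* was not called, and whether the fold changes of *Tjp3* and *Tjp1* differ was not tested. The angiomotins, which bind polarity and Hippo pathway proteins at the junction, were all called lower, with log2 fold changes of -0.99 for *Amot*, -0.55 for *Amotl1* and -0.33 for *Amotl2* (edgeR adjusted p = 8.50e-04, 0.00322 and 0.0393), although *Amotl2* lost its call in 7 of 15 settings. *Amot* lies on chromosome X, and sex cannot be told apart from genotype in these groups. The remaining 3 were the polarity scaffolds *Mpp5* (PALS1), *Inadl* (PATJ) and *Mpdz* (MUPP1), with log2 fold changes of -0.37, -0.40 and -0.38. *Mpdz* lost its call in 10 of 15 settings, *Inadl* in 7 and *Mpp5* in 1.

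Of 15 signalling genes at the junction, 4 were lower and 1 was higher, where 12.3% of all genes tested were called lower and 10.9% higher. The log2 fold change was above 0 for 6 of the 15 and below 0 for 9. *Ybx3*, the ZO-1-associated nucleic acid binding protein, averaged 928 ± 109 CPM in ft/ft and 512 ± 20.4 CPM in ft/ftMyD88-/- (SD, n = 4 each, log2 fold change -0.86, SE 0.102, edgeR adjusted p = 2.09e-04), with the groups apart. *Prkcz*, an atypical protein kinase C, fell from 14.5 ± 0.732 CPM to 10.0 ± 0.659 CPM (edgeR adjusted p = 0.00364). Both remained called in all 15 settings, whereas *Arhgef18* and *Rab3b* (edgeR adjusted p = 0.0404 and 0.0439) lost their calls in 10 and 8 settings. *Rock2*, a kinase that contracts the actomyosin belt, was higher at 81.3 ± 3.90 CPM in ft/ftMyD88-/- against 63.2 ± 6.07 CPM in ft/ft (SD, n = 4 each; edgeR adjusted p = 0.0113), with the groups apart and the call kept in all 15 settings.

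**Figure D3:**
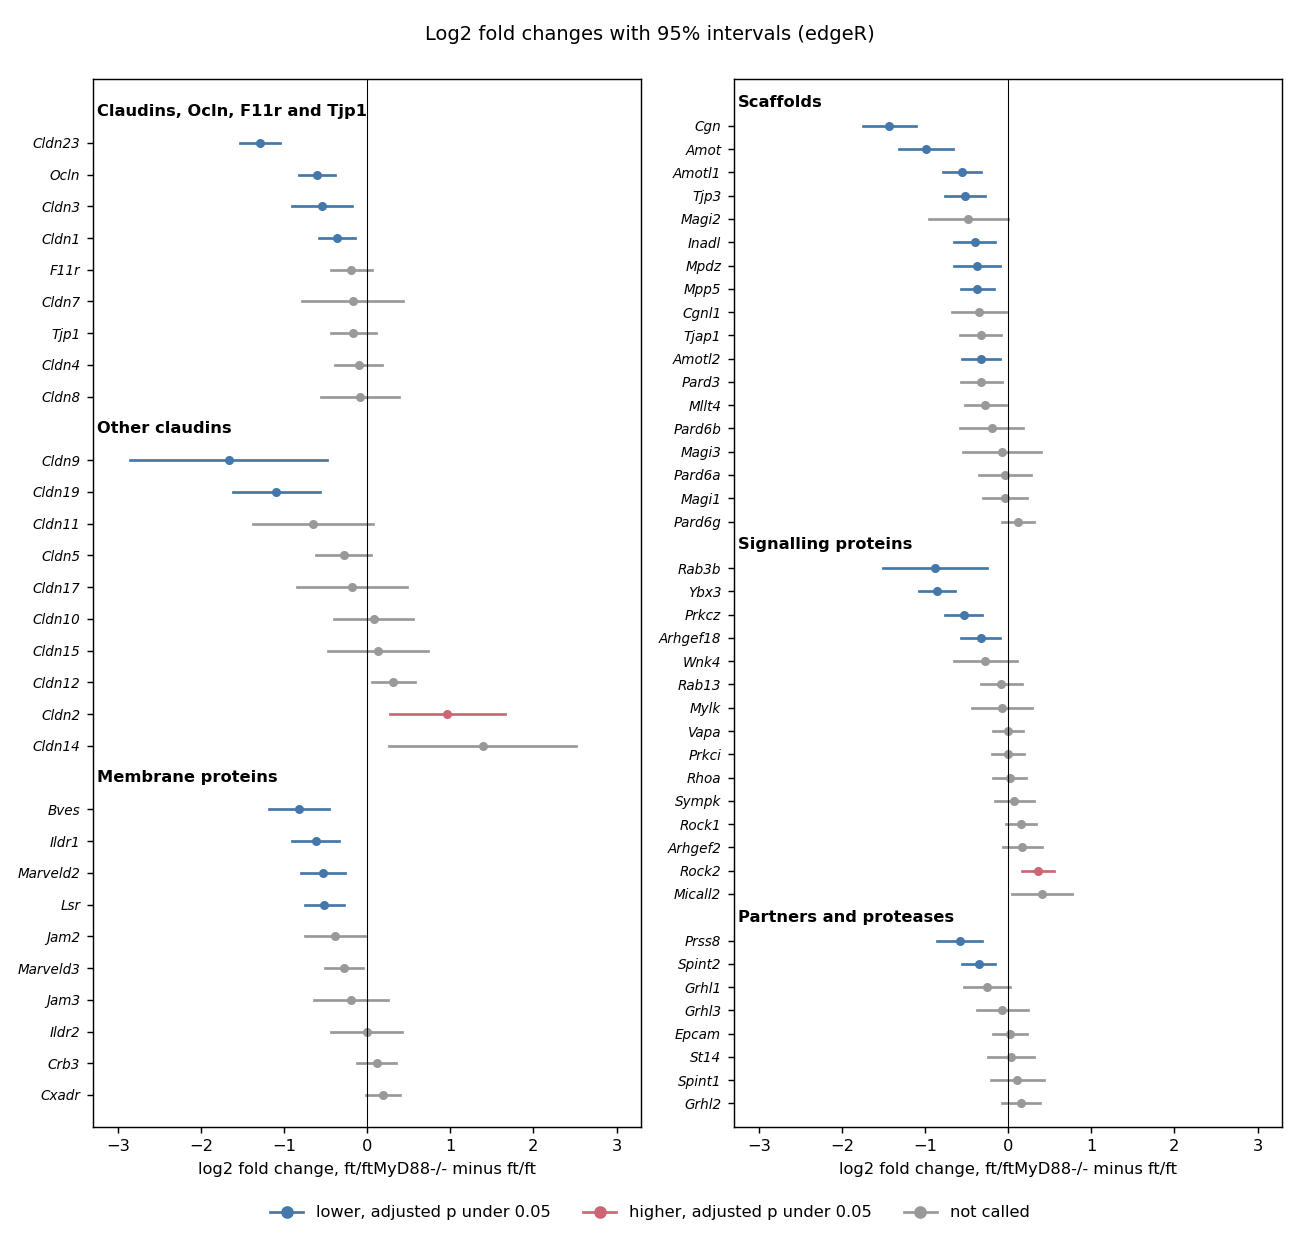
Log2 fold changes (ft/ftMyD88-/- minus ft/ft, horizontal axis) with 95% intervals from edgeR for the 9 genes and the lists of other claudins, junction genes and partners, coloured by call. With TMM scaling, points left of 0 are lower in ft/ftMyD88-/-, with *Cgn* at -1.43 and *Cldn23* at -1.29 among the lowest. With library size only, *Cldn4*, *Cldn7*, *Cldn8* and *Tjp1* move to between 0.0033 and 0.090, while the median of all genes moves by 0.177.

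Claudin partners and barrier proteases were read next, since the adhesion molecule *Epcam* binds claudin-7 and holds it in the membrane. *Epcam* stood at 287 ± 25.2 CPM in ft/ft and 291 ± 19.4 CPM in ft/ftMyD88-/- (SD, n = 4 each), with a log2 fold change of 0.02 and a 95% interval of -0.18 to 0.22 (edgeR adjusted p = 0.898). The serine protease *Prss8* (prostasin) was lower, at 74.1 ± 11.7 CPM in ft/ft and 49.4 ± 6.79 CPM in ft/ftMyD88-/- (edgeR adjusted p = 0.00606). *St14* (matriptase), which acts in one cascade with prostasin, stood at 199 ± 12.1 CPM and 204 ± 41.4 CPM (edgeR adjusted p = 0.876). The protease inhibitor *Spint2* was lower at 312 ± 18.1 CPM against 400 ± 31.9 CPM (edgeR adjusted p = 0.0148), a call lost with library size only. The grainyhead factors *Grhl1*, *Grhl2* and *Grhl3*, which regulate epithelial junction genes, did not pass the test (edgeR adjusted p = 0.177, 0.314 and 0.766). In all, 2 of the 8 genes of this list were called, both lower. Of all genes tested, 12.3% were called lower and 23.3% were called in either direction.

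**Figure D4:**
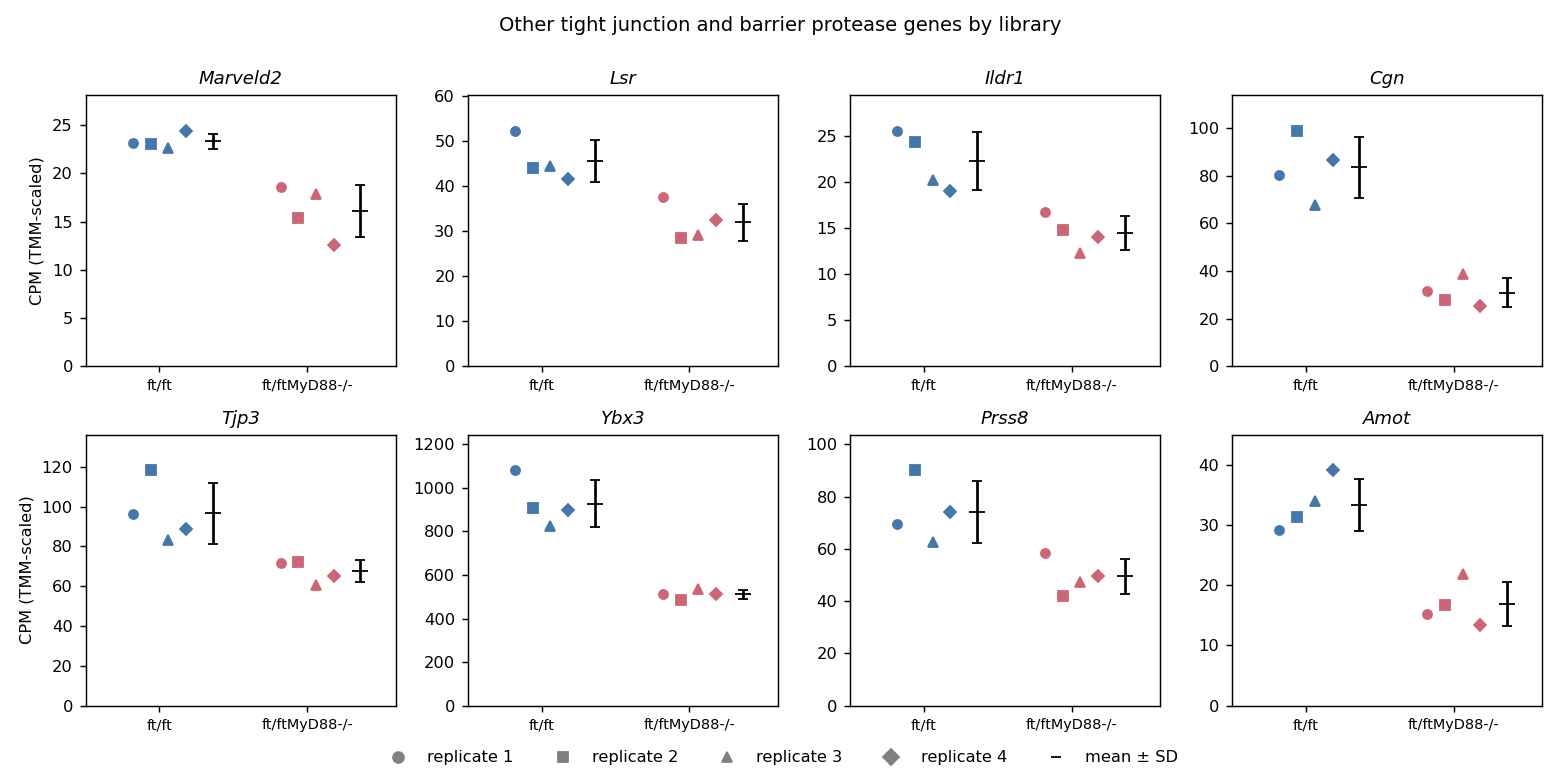
CPM (TMM-scaled, linear axis from 0) of 8 other junction and barrier protease genes in each library, with marker shapes for replicate numbers and bars for the group mean ± SD (n = 4). All 4 ft/ftMyD88-/- libraries lie below all 4 ft/ft libraries in every panel. *Cgn* stood at 30.9 against 83.5 CPM and *Amot* at 16.8 against 33.4 CPM. The panels are a selection and not whole lists. This pattern held for 15 of the 43 other tight junction genes and 2 of the 8 partners and proteases. It held for 14.2% of all genes tested.

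The adherens junction, which lies beneath the tight junction, was a point of comparison. Of its 11 genes tested, 3 were called, all lower, namely *Cdh1*, *Ctnnd1* (p120-catenin) and *Jup* (plakoglobin), with log2 fold changes of -0.41, -0.46 and -0.34 (edgeR adjusted p = 0.0113, 0.0107 and 0.0487). Over all genes tested, 12.3% were called lower and 23.3% were called in either direction. The call of *Jup* was lost in 10 of 15 settings and all 3 were lost with library size only. The count was 5 without ft/ft replicate 2 and 6 with DESeq2. *Cdh3* (P-cadherin) and *Ctnna1* were not called (edgeR adjusted p = 0.0729 and 0.0972). No test of the difference between the junction types was made.

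Markers of several cell types of the skin differed between the groups, and not all of them in one direction. The counts called below stand beside 12.3% of all genes tested called lower and 10.9% called higher. Of 10 markers of differentiated keratinocytes 6 were lower, and their summed level was 22913 to 27927 CPM in ft/ft and 13486 to 16404 CPM in ft/ftMyD88-/-. *Lor* (loricrin), the main protein of the cornified envelope, fell 2.84-fold (log2 fold change -1.51, SE 0.127, edgeR adjusted p = 2.30e-05), whereas *Krt1* at -0.10 and *Ivl* (involucrin) at 0.10 on the log2 scale were not called. Of 7 basal keratinocyte markers 5 were lower, at 14025 to 17176 CPM and 9838 to 12059 CPM summed, with *Krt5* at -0.67 and the uncalled *Krt14* at 0.049 on the log2 scale. Of 9 sebocyte markers 5 were lower, at 19370 to 22236 CPM and 11618 to 17171 CPM. Of 9 markers of simple and mucosal epithelium 2 were lower, and the summed levels overlapped, at 1501 to 2953 CPM and 1097 to 2093 CPM. A pair of other epithelial lists had fold changes above 0 and no gene called. The 4 hyperproliferative keratin genes summed to 2784 to 3573 CPM in ft/ft and 3208 to 5403 CPM in ft/ftMyD88-/-, a sum set mainly by *Krt17*, and all 4 had a log2 fold change above 0 (median 0.40). *Krt16* stood at 67.2, 253, 46.9 and 49.9 CPM in ft/ft and at 357, 702, 370 and 1074 CPM in ft/ftMyD88-/-, so its groups were apart (log2 fold change 2.58, SE 0.749, edgeR adjusted p = 0.0530). The 7 inner root sheath and hair shaft genes had the largest median shift of the marker lists, 1.81 on the log2 scale, with 7 of 7 above 0 and 0 called. Their summed level was 1835 to 2591 CPM in ft/ft and 2305 to 15629 CPM in ft/ftMyD88-/-, highest in ft/ftMyD88-/- replicate 1, the library in which all 9 junction genes lay above their group's mean.

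Of 7 leukocyte markers 3 were higher, at 319 to 558 CPM and 923 to 1646 CPM summed, with 5 log2 fold changes above 0 and 2 below. Within ft/ft, replicate 2 stood out for 2 of these markers. Counts in ft/ft were 209, 2430, 79 and 40 for *S100a8* and 314, 3687, 115 and 76 for *S100a9*. In ft/ftMyD88-/- they were 4021, 6639, 4260 and 6638 for *S100a8* and 6579, 11439, 6891 and 8669 for *S100a9*. Of 7 endothelial markers 2 were lower and 1 was higher, at 246 to 302 CPM and 187 to 244 CPM, and of 4 Langerhans cell markers 2 were lower and 1 was higher, at 818 to 1092 CPM and 626 to 853 CPM. Among all genes tested, 12.3% were called lower, 10.9% higher and 23.3% in either direction. No marker of these lists was at 0 in all libraries, and their part in the results for the junction genes was not tested.

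Genes of like pattern were sought among 11794 genes outside the lists with a mean of at least 5 CPM, as the smallest root mean square difference in log2 CPM over the 8 libraries after each gene's mean was subtracted. The nearest to *Cldn23* was *Mboat2*, at a difference of 0.109, with 122 ± 22.6 CPM in ft/ft and 54.4 ± 3.58 CPM in ft/ftMyD88-/-. The nearest to *Ocln* was *Anxa9* (0.0710), to *Cldn1* *Pdk1* (0.0586) and to *Cldn3* *Bmp2* (0.118). For the genes not called, *Cldn4* was nearest to *Bspry* (0.0492), *Cldn7* to *Upp1* (0.106), *Cldn8* to *Ptgds* (0.115), *Tjp1* to *Foxo3* (0.0412) and *F11r* to *Tmem54* (0.0699). Among the 9 themselves, the closest pair was *Cldn4* and *F11r*, at 0.115, followed by *Cldn1* and *Ocln*, at 0.152, and the farthest was *Cldn7* and *Cldn23*, at 0.673. All points share the 8 libraries, so likeness describes these libraries only.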

How the data were processed

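RNA-seq counts from periocular skin of 4 ft/ft and 4 ft/ftMyD88-/- samples were compared, grouped by title, and the WT libraries were not analysed here. The authors deposited raw counts per gene without normalization. Per the study's methods, polyA-selected TruSeq libraries were aligned to GRCm38.p6 with HISAT and tophat2, and counted with HTSeq at default parameters, whereas the 8 samples' labels give total RNA, a fixed-tissue protocol, Cell Ranger and GRCm38. Versions, annotation release and strand setting are not given in the sources used here.

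A gene needed 10 counts over the 8 libraries to enter the test, which used edgeR 4.0.16 in R 4.3.3 (TMM, glmQLFit with robust = TRUE, glmQLFTest, two-sided, no covariate), with Benjamini-Hochberg adjustment at 0.05. Standard errors came from the log2 fold change and F. CPM were TMM-scaled, RPKM used the GENCODE exon union, and log2 CPM used a prior count of 2. The common biological coefficient of variation was 0.182. A count of 3, the limit that 0 counts allow, was 0.102 to 0.183 CPM, for counting error only. Any 2 replicates differed far beyond counting noise (chi-square over its degrees of freedom 15.1 or more), so none was a duplicate. The model was checked on simulated data with larger fold changes than those of the members. That check does not show how well changes of their size are found.

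Alternatives were DESeq2 1.42.0, RLE factors, library size only, filterByExpr, no filter, limma 3.58.1 voom, the replicate number as a block, and each of 8 libraries left out. Named genes were the 9 members, the genes of the listed junction groups, the nearest gene to each member, and genes for sex, targets and markers. The members and lists were chosen with earlier results of these data known. Some listed genes are not reported here and were left out of the lists. Sequences came from RefSeq tables of GRCm38.p6.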

Additional observations from a re-analysis of the deposited data

Results flagged for a closer look

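In groups of 4 libraries, a single library stood far from the other 3 in 8 of 138 groups checked (5.80%), and chance gives about 1 in 20. *Pard3* was 110 CPM in ft/ftMyD88-/- replicate 1 against 85.8 to 89.5 CPM in the others, and *Ctnna1* was 338 CPM in that library against 289 to 295 CPM. *Foxo3*, the gene nearest in pattern to *Tjp1*, was 176 CPM in the same library against 124 to 130 CPM. *Upp1*, nearest to *Cldn7*, was 18.7 CPM in ft/ftMyD88-/- replicate 3 against 39.0 to 42.5 CPM, and *Mboat2*, nearest to *Cldn23*, was 59.7 CPM there against 52.4 to 53.0 CPM. *Spint2* was 352 CPM in ft/ft replicate 4 against 412 to 418 CPM. *Xist* was 0.0429 CPM in ft/ft replicate 1, from 1 count, and 0 in the others. *Ddx3y* was 0.482 CPM in ft/ftMyD88-/- replicate 1 against 0 to 0.0735 CPM. None of the 9 claudin and tight junction genes had such a library in either group.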

How the results depend on the processing

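Of 39 named genes with a call, 21 kept it in every setting, 18 lost it in at least 1 and 0 changed sign. Of 30 without a call, 12 gained one and 12 changed sign in at least 1 setting. With library size only, 4638 genes were higher and 1326 lower, so that 22.2% of calls were lower against 53.0% with TMM, and 2 members (*Cldn23* and *Ocln*) were lower. The log2 fold change turned to 0.073 for *Cldn4*, 0.0033 for *Cldn7*, 0.090 for *Cldn8*, 0.0082 for *Tjp1*, 0.11 for *Grhl3*, 0.057 for *Bspry*, 0.13 for *Upp1*, 0.071 for *Ptgds* and 0.024 for *Foxo3*. This scaling moved the median of all genes by 0.177, and relative to that shift the same 9 genes lay between -0.17 and -0.051, all below 0. DESeq2 called 6 adherens junction genes.

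Leaving out 1 library gave 1464 to 2260 genes higher (1464 without ft/ft replicate 4), 2 to 4 members lower (2 without ft/ftMyD88-/- replicate 2, again *Cldn23* and *Ocln*), 1 to 3 other claudins called (1 without ft/ft replicate 3 or 4 or ft/ftMyD88-/- replicate 4) and 2 to 5 adherens junction genes called (5 without ft/ft replicate 2). Signs then changed for *Cldn4* (-0.23 to 0.013), *Cldn7* (-0.31 to 0.045), *Cldn8* (-0.27 to 0.073), *Cldn17* (-0.45 to 0.066), *Epcam* (-0.031 to 0.064), *St14* (-0.11 to 0.13), *Grhl3* (-0.17 to 0.068), *Upp1* (-0.17 to 0.18) and *Ptgds* (-0.31 to 0.027), none of which was called.

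Same-numbered libraries were not treated as paired in the main test. The correlations of their deviations were -0.311 to 0.0645, and 1 of 8 libraries correlated best with its own number. With so few libraries per group, these values cannot show whether the samples were paired. With the replicate number as a block, 1895 genes were higher and 2144 lower, 4 members were lower (the same 4), and 14 other tight junction genes were called. The cause of these changes was not tested.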
